A study of Saccharomyces cerevisiae with 12 samples.

Results

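BMH-21 is a DNA-intercalating small molecule that inhibits RNA polymerase I (Pol I), and its late effect on the positions of Pol I along the ribosomal DNA was described here from native elongating transcript sequencing (NET-seq) of yeast treated for 16 min. The comparison took 6 of the 12 libraries of the series, 3 from vehicle-treated and 3 from BMH-21-treated cultures, and all 6858 positions of the 35S gene. Every group was the same Saccharomyces cerevisiae strain, with an HA tag on the Pol I subunit Rpa135, the chromosomal RPA190 gene deleted and RPA190 supplied on a plasmid. BMH-21 was given at 50 μM to cultures growing at 30 °C (OD600 of 0.3 at the time), vehicle cultures received its phosphate buffer alone, and harvest followed a further 15 min of incubation. The other 6 libraries, from cultures treated for 2 min, appear below only as values set beside the late ones.

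The 35S gene encodes the precursor of 3 mature rRNAs (18S, 5.8S and 25S), which are separated and flanked by spacers that processing removes: the external spacers ETS1 and ETS2 and the internal spacers ITS1 and ITS2. In NET-seq the tagged polymerase is pulled down and the 3′ ends of the attached RNAs are sequenced. A read end from a transcript in progress marks the nucleotide that Pol I added last. Mature rRNA is abundant in any yeast extract and has the sequence of the gene regions, whereas spacer RNA is short-lived. The study therefore relies on the spacers to observe transcripts in progress. The part that mature rRNA played in the gene-region signal was not tested, nor was that of partly processed RNA in the spacers. The untagged Pol I control of the study is not analysed here.

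The 35S gene lies on the minus strand of chromosome XII (assembly R64, chrXII:460712-467569, the copy annotated as RDN37-2, with a near-identical second copy beside it that the reads cannot be told apart from). Positions are counted in nt from its 5′ end. The sequences below are RNA, 5′ to 3′, with the base at the read end in capitals, and they show the read ends on which the results turn. The first pair are tall peaks of ETS1 that stayed peaks after BMH-21 treatment:
position 232 (chrXII:467323-467353): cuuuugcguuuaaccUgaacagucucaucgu
position 405 (chrXII:467150-467180): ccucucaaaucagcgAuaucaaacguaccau
The next 3 were called as peaks, by the rule given with the peaks, in every BMH-21-treated library and in no vehicle-treated library:
position 283 (chrXII:467272-467302): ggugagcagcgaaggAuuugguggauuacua
position 497 (chrXII:467058-467088): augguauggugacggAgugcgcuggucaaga
position 2605 (chrXII:464950-464980): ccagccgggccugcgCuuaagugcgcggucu
The last 4 are the tallest ITS2 peak with vehicle, the ITS1 position with the highest BMH-21 mean, a position at the very start of 18S and the highest position of the whole gene:
position 3025 (chrXII:464530-464560): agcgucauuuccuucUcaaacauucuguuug
position 2710 (chrXII:464845-464875): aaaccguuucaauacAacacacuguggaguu
position 702 (chrXII:466853-466883): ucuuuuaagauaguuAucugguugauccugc
position 6399 (chrXII:461156-461186): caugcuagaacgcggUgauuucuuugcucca

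Values are RPM, read ends scaled so that positions 1 to 6739 of the 35S gene, up to its main terminator, sum to 1000000 in each library, so they are shares of that signal and not amounts of RNA per cell, and lower spacers cannot be told apart from higher gene regions on this scale alone. The libraries held 1054374 to 10480384 reads on the gene. In the spacers, the vehicle-treated libraries held 61839 to 390651 reads and the BMH-21-treated libraries 9783 to 29596. Replicate 2 of either treatment was patchier than the others of its group. With the spacers of all libraries thinned to 9783 reads, vehicle replicate 2 had no read at 504 of the 1504 spacer positions, against 342 and 331 in the other vehicle libraries, and BMH-21 replicate 2 had none at 660, against 487 and 350.

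After 16 min the signal of every spacer window had fallen, between 3.21- and 8.26-fold. The gene was divided into 69 windows of 100 nt. By limma with Benjamini-Hochberg adjustment, 15 windows were lower with BMH-21 at an adjusted p under 0.05, which is 21.7% of all windows, and 0 were higher (0%, with 2 at an unadjusted p under 0.05). The 15 were all of the spacer windows. In each of them, every BMH-21-treated library lay below every vehicle-treated library.

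In ETS1, the leader of the transcript, the first window (positions 1 to 100) held 0.205%, 0.234% and 0.262% of each library's signal with vehicle and 0.032%, 0.022% and 0.036% with BMH-21, a log2 change of -2.99 ± 0.25 (SE). The following windows changed by -2.47, -2.82, -2.79, -2.72, -3.05 and -2.37, with no steady rise or fall away from the promoter. Positions 1 to 350 and 351 to 700 of ETS1 both changed by -2.70 on the log2 scale. In positions 501 to 600, the most lowered window of the gene, the vehicle mean of 0.242% ± 0.037 (SD, n = 3) stood against 0.030% ± 0.008 (SD, n = 3) with BMH-21.

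The 4 windows of ITS1, the spacer between 18S and 5.8S, changed by -2.37, -2.36, -1.68 and -2.77 on the log2 scale, and those of ITS2, between 5.8S and 25S, by -2.41 and -2.39. In ETS2, downstream of 25S, the first window changed by -2.22 ± 0.34 (SE) and the last by -1.86 ± 0.56 (SE). The last window rests on 61 reads in the library with the fewest, and its adjusted p by limma was 0.040. With edgeR, a median-ratio scaling or the replicate block, and without vehicle replicate 1, 2 or 3 or BMH-21 replicate 1, 14 windows were lower. With the highest position left out of the scaling, or with every position up to 30 nt from the end of a mature rRNA left out, 15 were.

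The windows of the gene regions lay close to no change. Apart from the window that holds position 6399, their log2 changes ranged from -0.14 to 0.15, and the smallest adjusted p by limma was 0.17. The window from 6352 to 6451 held 4.73%, 7.77% and 6.41% of the signal with vehicle and 8.11%, 10.3% and 9.25% with BMH-21. These groups did not overlap, but the log2 change of 0.57 ± 0.27 (SE) did not pass the test (adjusted p by limma 0.22). With the replicate number as a block, this window and the 25S window 5852 to 5951 were called higher. Groups did not overlap either in the 25S windows 5152 to 5251 and 5652 to 5751, which were higher with BMH-21. The same held for the 18S windows 1201 to 1300 and 1601 to 1700, which were lower. No other gene-region window had groups without overlap. Groups of 3 split at random fail to overlap with a probability of 0.1, so the separation alone does not single these windows out. The window 5652 to 5751 was called higher with position 6399 left out of the scaling, with the median-ratio scaling and with edgeR.

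**Figure D1:**
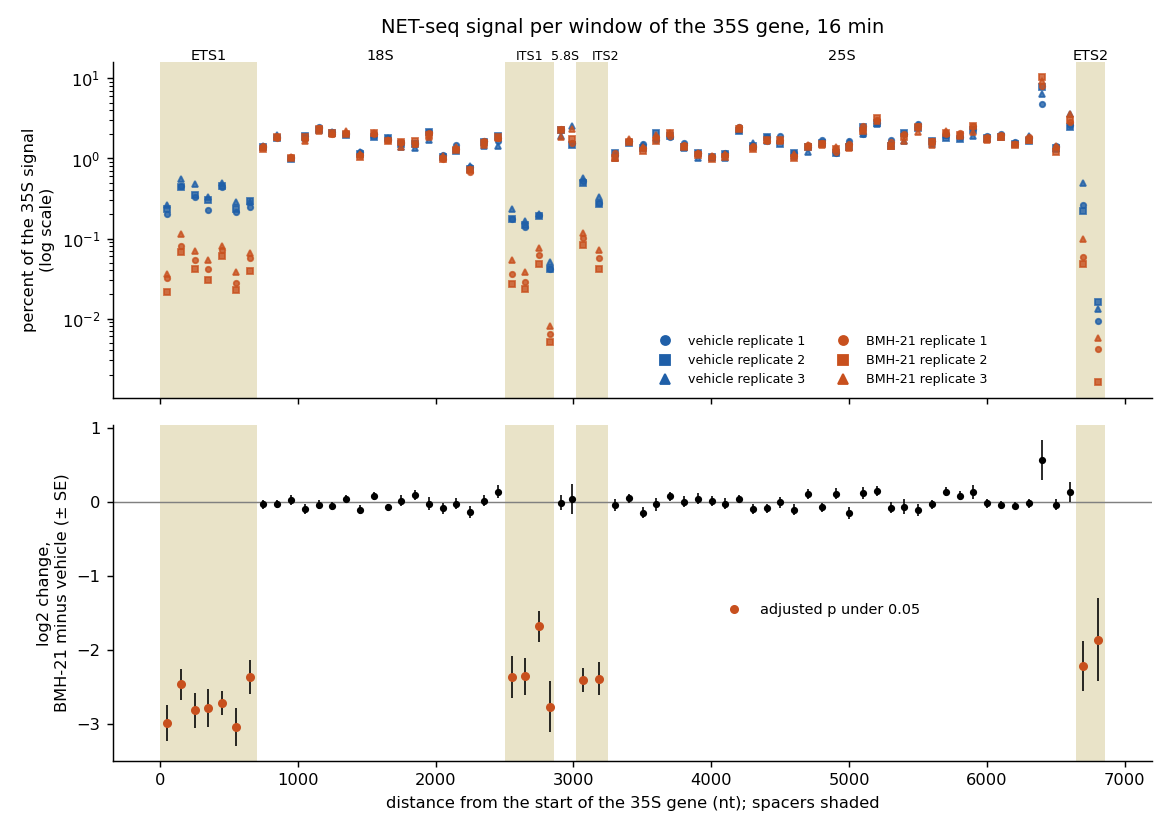
Signal in 69 windows of the 35S gene at 16 min, with the distance from the start of the gene in nt on the x axis and the spacers shaded. The upper panel gives the percent of the 35S signal of each library on a log axis, and the lower panel the log2 change (BMH-21 minus vehicle, bars: SE). The 15 spacer windows lie between -3.05 and -1.68, and the gene-region windows near 0 except the one with position 6399, at 0.57.

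The signal left in the spacers was spread differently. Taking the spacers of each library as the whole, ETS1 held 56.3%, 59.6% and 56.6% with vehicle and 50.5%, 50.5% and 49.7% with BMH-21. ITS1 rose in share from 14.4% ± 0.6 (SD, n = 3) to 18.7% ± 0.2 (SD, n = 3). For both, the groups did not overlap (two-sided exact permutation test, p = 0.1, which is as low as groups of 3 can reach). ITS2 went from 20.1% ± 1.3 to 21.5% ± 1.1 (SD, n = 3 each, exact p = 0.2) and ETS2 from 7.96% ± 2.31 to 9.55% ± 1.38 (SD, n = 3 each, exact p = 0.4), with overlapping groups.

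A single ITS1 window stood out in this view. Positions 2701 to 2800 held 5.26%, 5.02% and 4.23% of the spacer signal with vehicle and 8.75%, 8.60% and 8.17% with BMH-21. Position 2710, the tallest there after treatment, did not carry this alone, since the rest of the window still went from 4.55% ± 0.45 to 7.30% ± 0.15 (SD, n = 3 each). The ITS1 window 2601 to 2700 and the ITS2 window 3120 to 3251 also gained share without overlap, by less. In the opposite direction, the ETS1 windows 1 to 100, 201 to 300, 301 to 400 and 501 to 600 lost share without overlap. So did the ITS1 window 2801 to 2861. The window 501 to 600 went from 5.87% ± 0.17 to 4.02% ± 0.17 (SD, n = 3 each).

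**Figure D2:**
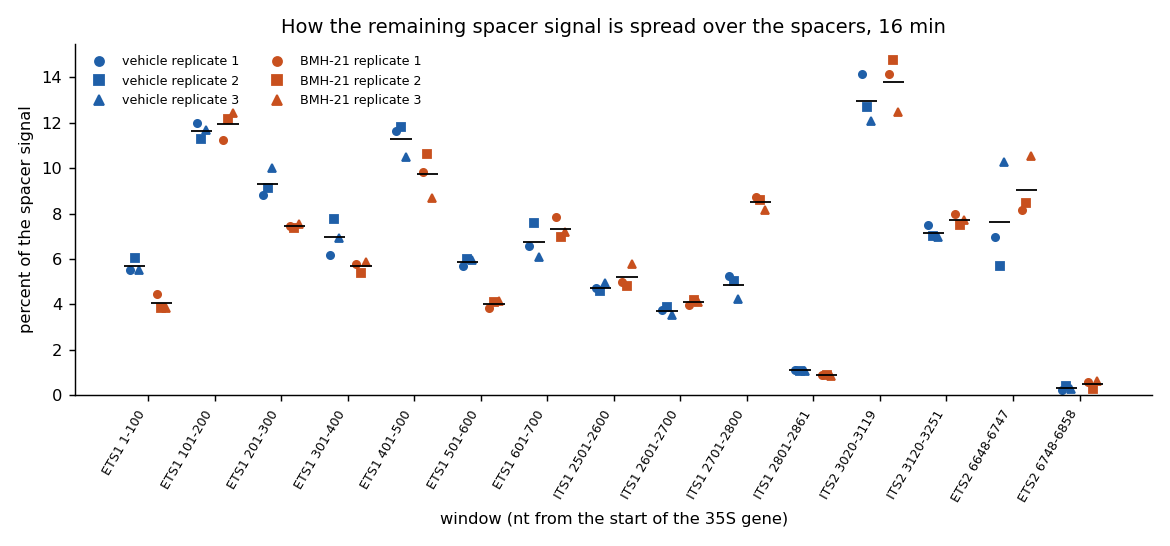
Share of each library's spacer signal in the 15 spacer windows at 16 min, in percent, with the 6 libraries as points and the group means as black lines. The window 2701 to 2800 of ITS1 rises from 4.23 to 5.26% with vehicle to 8.17 to 8.75% with BMH-21, while the window 501 to 600 of ETS1 falls from a mean of 5.87% to 4.02%.

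At single positions, limma on log2(RPM + 1) was run where the mean over the 6 libraries was at least 1 RPM, which 6707 positions passed. Over the gene, 11.8% of the tested positions were lower at an adjusted p under 0.05 and 0.343% higher. Of the 1504 spacer positions, 1360 passed the filter, 623 were lower and 0 higher (0 also at an unadjusted p under 0.05, and 0 with edgeR). With 1 library left out, between 425 and 717 were lower, the fewest without vehicle replicate 1 and the most without vehicle replicate 2. The share lower was 56.3% in ETS1 (378 of 671), 34.4% in ITS1 (119 of 346), 40.4% in ITS2 (93 of 230) and 29.2% in ETS2 (33 of 113). The median log2 change over the tested positions was -2.27, -1.81, -1.85 and -1.5 in the same order, against -0.06 over the whole gene. Over all tested spacer positions it was -2.0, and it moved to -2.82 with a pseudocount of 0.1, -1.10 with a pseudocount of 5 and -2.56 with edgeR. When each library was instead scaled to the sum of its spacers, the median over the whole gene moved to 2.42 and that of the spacers to -0.29.

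The share of positions called differed with the level of a position. All 18 spacer positions with a mean of at least 200 RPM were lower, as were 13 of 15 between 100 and 200 RPM, and 224 of 858 between 1 and 10 RPM. The median log2 change was -3.02 in the highest of these classes and -1.69 in the lowest, where the pseudocount of 1 RPM weighs most. The classes rest on the mean over all 6 libraries, the same values as the change. No spacer position had a BMH-21 mean above 121 RPM, so positions of the highest class had to be higher with vehicle. The classes therefore cannot tell whether the fall depends on the level. The 5 most lowered spacer positions were 643, 414, 642, 6662 and 450. Position 642 lies in a run of A near the end of ETS1. It had 40.7, 41.8 and 43.8 RPM with vehicle and 3.18, 0 and 0.949 RPM with BMH-21. Position 414, also in ETS1, had 82.7, 67.5 and 87.6 RPM with vehicle and 11.3, 0 and 2.85 RPM with BMH-21. In both cases BMH-21 replicate 2 was at 0 reads.

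In the gene regions, 166 of 5347 tested positions were lower (3.10%) and 23 higher (0.43%). Those lower numbered 79 in 18S, 4 in 5.8S and 83 in 25S, with a median log2 change of -1.01 in 18S and -1.0 in 25S. The counts depended on single libraries. Without vehicle replicate 1, BMH-21 replicate 1 or BMH-21 replicate 2, 95, 105 and 99 positions were lower. The 23 higher positions became 14, 8 and 1 without the same libraries, and 42 without vehicle replicate 2. The higher ones were 12.2% of the gene-region calls with the deposited scaling, 22.4% when position 6399 was left out of the scaling, 29.3% with a median-ratio scaling and 35.1% with edgeR.

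The most lowered gene-region positions lay at the very start of 18S. Of the 5 chosen by size of change, 4 were positions 702, 706, 708 and 711, which are bases 2 to 11 of the mature rRNA, and the fifth was 3903 in 25S. Position 702 had 115, 195 and 237 RPM with vehicle and 14.8, 3.41 and 13.3 RPM with BMH-21, a log2 change of -4.14 ± 0.46 (SE, adjusted p by limma 8.7e-05, and 0.062 without limma's moderation). Every BMH-21-treated library was below every vehicle-treated library there. Summed over the first 10 bases of 18S, the signal was 197, 275 and 373 RPM with vehicle and 30.0, 7.78 and 36.0 RPM with BMH-21, a mean log2 change of -3.74. Over bases 11 to 20 it was 987 ± 182 RPM and 926 ± 120 RPM (SD, n = 3 each), and the groups overlapped.

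The first 10 bases of 5.8S and of 25S carried little signal in either group. In 25S they had 89.3, 49.6 and 99.1 RPM with vehicle and 20.5, 25.2 and 56.0 RPM with BMH-21, so the groups overlapped, and the mean log2 change was -1.31. In 5.8S it was -0.81, again with overlap, and replicate 3 of either treatment was the highest. The last 10 bases of the mature rRNAs held more, between 7018 and 13944 RPM in each library. They changed by 0.26 in 18S, 0.13 in 5.8S and 0.24 in 25S on the log2 scale, with overlapping groups in each. These blocks of 10 were chosen after the values of the first bases were seen.

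The raised gene-region positions changed less. The 5 with the largest rise were 1873 and 1874 in 18S and 5781, 5906 and 5213 in 25S. Position 1873 had 38.2, 20.7 and 46.1 RPM with vehicle and 71.7, 79.8 and 87.3 RPM with BMH-21, a log2 change of 1.23 ± 0.31 (SE, adjusted p by limma 0.020). Position 5906 had 173, 145 and 151 RPM with vehicle and 255, 300.0 and 227 RPM with BMH-21, a log2 change of 0.73 ± 0.17 (SE, adjusted p by limma 0.013). The groups did not overlap at either position. Both lost their call without BMH-21 replicate 1 or 2, position 1873 also without BMH-21 replicate 3 and without the filter on low values, and both without limma's moderation.

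ETS2 holds the sites where the transcript is cut and Pol I leaves the template. Rnt1 is the RNase III that cuts the precursor in ETS2, T1 is the main terminator, and Reb1 and Nsi1 are the DNA-binding proteins that mark it. Before the Rnt1 stretch (positions 6648 to 6662), the signal was 1714, 1384 and 3655 RPM with vehicle and 436, 396 and 726 RPM with BMH-21, a mean log2 change of -2.04. This sum joins unlike positions. Position 6662, next to the Rnt1 stretch, had 781, 693 and 1735 RPM with vehicle and 50.2, 33.2 and 57.9 RPM with BMH-21. Position 6650 had 122, 62.4 and 191 RPM with vehicle and 91.9, 91.2 and 179 RPM with BMH-21, with overlapping groups. Within the 35 positions annotated as cut by Rnt1 the signal was 434, 347 and 621 RPM with vehicle and 78.5, 43.0 and 153 RPM with BMH-21, a change of -2.5. Between there and T1 it changed by -2.93. In each of these stretches the groups did not overlap.

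At T1 itself (position 6739) the signal was 100.3, 134 and 108 RPM with vehicle and 18.4, 2.09 and 8.54 RPM with BMH-21. This is a mean log2 change of -4.03, resting on 52, 11 and 9 reads in the BMH-21-treated libraries. Beyond T1, over the last 119 positions of the gene, the change was -1.97, and over the 11 bases of the Reb1 and Nsi1 site it was -1.43, from 24.1 ± 6.3 RPM to 9.20 ± 3.26 RPM (SD, n = 3 each). Each of these sums had non-overlapping groups (two-sided exact permutation test, p = 0.1). At the other end of the gene, the 5 positions annotated as core promoter had at most 5 reads in any library, too few for a comparison.

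Peaks were called in each library against their own surroundings, so that a loss shared by a whole region does not by itself end a tall peak. A low peak can still be lost through the minimum number of reads. A peak had at least 10 reads after every library was thinned to the same depth (9783 reads in the spacers), stood at least 10-fold over the median of the positions within 50 nt, and was the highest within 5 nt. In the spacers, 29 positions were peaks in all 3 vehicle-treated libraries. After BMH-21 treatment, 12 of them were peaks in all 3 libraries, 11 in 1 or 2 libraries and 6 in none. In RPM, all 29 had fallen, by log2 changes of -4.39 to -1.57. Because the 29 were chosen for their height with vehicle, no test was made of their share, which went from 26.5 to 26.9% of the spacer signal with vehicle to 15.2 to 17.3% with BMH-21.

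Of the 12 peaks that remained, 9 lay in ETS1, 1 in ITS1 and 2 in ITS2. Position 232 in ETS1 kept its place as a peak although its signal went from 844, 955 and 1240 RPM to 106, 86.3 and 70.2 RPM. It stood 91.6-, 78.5- and 76.9-fold over its local median with vehicle and 49.8-, 114- and 24.7-fold with BMH-21, so its height over the surroundings overlapped between the groups. Position 405, an ETS1 peak of 710, 698 and 562 RPM with vehicle, had 68.6, 42.3 and 53.1 RPM with BMH-21. Position 144 was the ETS1 peak with the smallest fall among those that remained. It went from 368, 335 and 364 RPM to 98.9, 64.1 and 129 RPM, and its height over the local median was 18.4-, 15.7- and 13.2-fold with vehicle and 22.4-, 26.0- and 22.7-fold with BMH-21. Its share of the spacer signal was 0.87% ± 0.11 and 1.30% ± 0.14 (SD, n = 3 each). Position 377 varied widely among its libraries, with 222, 717 and 546 RPM with vehicle and 99.3, 16.9 and 134 RPM with BMH-21.

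Of the 6 peaks that vanished, 3 were no longer the highest within 5 nt. Position 279 had 319, 285 and 394 RPM with vehicle and 31.5, 14.8 and 32.2 RPM with BMH-21, and position 283 was taller in each of the latter, by 1 read in replicate 1. Position 279 itself stood 17.8-, 9.8- and 8.5-fold over its local median with BMH-21, so in replicates 2 and 3 it was also under the 10-fold limit. Position 283 had 139, 152 and 219 RPM with vehicle and 31.8, 23.7 and 39.8 RPM with BMH-21. The same exchange took place between positions 496 and 497. Position 496 had 278, 314 and 399 RPM with vehicle and 21.2, 27.1 and 31.3 RPM with BMH-21, against 269, 250.2 and 358 RPM and 60.8, 55.9 and 65.4 RPM at position 497. In both pairs the upstream position was taller in all 3 vehicle-treated libraries and the downstream position in all 3 BMH-21-treated libraries.

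The third was position 3025, which lies 6 bases into ITS2. It had 991, 745 and 1002 RPM with vehicle and 74.2, 74.5 and 66.4 RPM with BMH-21. Position 3024, beside it, had 682, 437 and 692 RPM with vehicle and 121, 87.2 and 116 RPM with BMH-21, so the order of the pair was turned in all 3 libraries, and in BMH-21 replicate 3 the highest of the group was 3023. Position 3025 still stood 30.0-, 35.7- and 17.5-fold over its local median after treatment. The other 3 that vanished were 3150 and 3241 in ITS2 and 6704 in ETS2. Position 3150 fell from 18.5-, 23.5- and 19.4-fold over its local median to 5.5-, 7.6- and 4.6-fold. Position 3241 fell from 13.7-, 9.7- and 13.4-fold to 3.5-, 2.9- and 5.5-fold. Taken over all reads, position 6704 stood 8.2-, 18.2- and 6.8-fold over its local median with vehicle and 7-, 16- and 8-fold with BMH-21. Its height thus overlapped between the groups. After thinning it had 5, 7 and 8 reads in the BMH-21-treated libraries, each under the minimum number of reads for a peak. These details of the vanished peaks were looked up after the calls were made.

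The 3 positions that were peaks with BMH-21 only were 283, 497 and 2605. Taken over all reads, without thinning, they also stood over their surroundings with vehicle, position 283 by 12.6-, 11.6- and 11.4-fold, position 497 by 20.5-, 17.9- and 22.7-fold and position 2605 by 6.6-, 11.4- and 5.8-fold. Position 2605, in ITS1, was the one of them whose RPM was nearly kept, with 55.8, 70.7 and 62.2 RPM with vehicle and 46.3, 43.4 and 43.6 RPM with BMH-21. Its log2 change of -0.49 ± 0.25 (SE) did not pass the test (adjusted p by limma 0.27), although every BMH-21-treated library lay below every vehicle-treated library. As a share of the spacer signal it went from 0.15% ± 0.03 to 0.63% ± 0.15 (SD, n = 3 each). Position 2710, a peak in all BMH-21-treated and 2 vehicle-treated libraries, went from 0.29% ± 0.10 to 1.20% ± 0.26 of the spacer signal (SD, n = 3 each). It stood 11.5-, 16.3- and 6.9-fold over its local median with vehicle and 43.3-, 59.9- and 22.5-fold with BMH-21. Position 6650, next to the end of 25S, went from 0.30% ± 0.12 to 1.61% ± 0.33 (SD, n = 3 each).

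These counts of peaks turned on the libraries and on the rule. With another seed for the thinning, 5 spacer peaks vanished and 2 were found with BMH-21 only. Without BMH-21 replicate 2, 11 of the 29 vanished instead of 6. Without a vehicle library there were 31 to 33 vehicle peaks. Without vehicle replicate 1 or BMH-21 replicate 1, 5 peaks were found with BMH-21 only, and without BMH-21 replicate 3, 7 were. The peaks called in the single BMH-21-treated libraries numbered 43, 71 and 31, with the patchy replicate 2 at the top, against 42, 43 and 40 with vehicle. The position at which the read end lay was A at 13, G at 9, U at 5 and C at 2 of the 29 vehicle peaks. Among the 12 that remained the order was 5, 4, 2 and 1, and among the 6 that vanished 2, 3, 1 and 0, numbers too small to compare.

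In the vehicle-treated libraries of the 2-min experiment, which are separate cultures, 19 of the 29 positions were peaks as well. That held for 10 of the 12 that remained at 16 min, for 6 of the 11 found in some libraries and for 3 of the 6 that vanished.

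**Figure D3:**
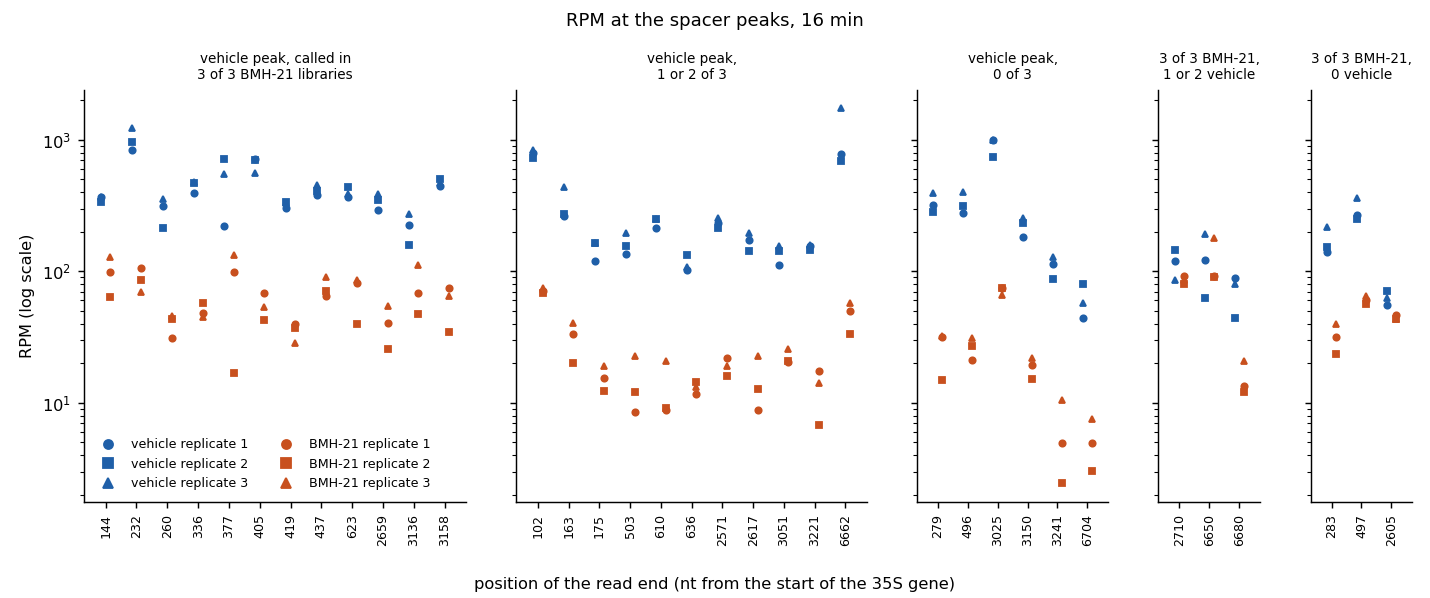
RPM on a log axis at the spacer peaks of the 16-min libraries, 1 point per library, sorted by the libraries in which they were called. All 29 vehicle peaks lie lower with BMH-21, and positions 2710, 6650 and 2605 on the right are those where the groups come close or overlap.

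In the gene regions, 11 positions were vehicle peaks, of which 9 remained and 1 vanished, with 0 found with BMH-21 only. The one that vanished was position 1031 in 18S, with 1146, 1343 and 1146 RPM with vehicle and 831, 842 and 750.3 RPM with BMH-21. With another seed for the thinning, or with no thinning, it was not among the vanished peaks, of which there were then 0. The tallest after position 6399 lay at the ends of mature rRNAs and in 25S. Position 2498, near the end of 18S, had 5275, 5864 and 3032 RPM with vehicle and 5915, 6061 and 4023 RPM with BMH-21. Position 6646, near the end of 25S, had 4098, 3696 and 4925 RPM with vehicle and 4305, 4890.0 and 4579 RPM with BMH-21. Position 5094 had 2907, 7494 and 3316 RPM with vehicle and 7773, 5254 and 5062 RPM with BMH-21. At these positions the groups overlapped.

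Some tall gene-region positions varied more with the replicate number than with the treatment. Position 6383 had 1030, 1939 and 7001 RPM with vehicle and 2209, 4548 and 10390 RPM with BMH-21. Position 2970 in 5.8S had 1054, 794 and 7421 RPM with vehicle and 772, 1558 and 5806 RPM with BMH-21. In both, replicate 3 of either treatment was the highest.

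Position 6399, base 3148 of 25S, was the highest position of the gene in all 6 libraries. It held 2.5%, 5.38% and 3.25% of the 35S signal with vehicle and 5.55%, 7.19% and 5.47% with BMH-21. The groups did not overlap, although vehicle replicate 2 came close to BMH-21 replicate 3. The means were 3.71% ± 1.5 and 6.07% ± 0.97 (SD, n = 3 each, two-sided exact permutation test, p = 0.1). The limma fit gave a log2 change of 0.77 ± 0.90 (SE, adjusted p 0.67). This SE includes limma's moderation toward the trend of the variance with level over all positions. It is therefore not the spread of these 6 libraries alone.

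The signal there was concentrated on a single nucleotide. It was 4.4 to 7.2 times the next highest position of the library with vehicle and 5.3 to 11.9 times with BMH-21. The base before it had 509, 547 and 524 RPM with vehicle and 736, 945 and 800 RPM with BMH-21, and the base after it 248, 301 and 249 RPM and 286, 292 and 315 RPM. In the 2-min libraries the same position held 0.034 to 0.79% with vehicle and 0.051 to 0.46% with BMH-21, and it was the highest position in only 1 of those 6.

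Leaving position 6399 out of the total raised the log2 change of every region other than 25S by the same small amount. The change of the spacers together was -2.5 with it and -2.47 without it. The share of 25S went from 62.9% ± 0.5 to 66.4% ± 0.1 (SD, n = 3 each) with all positions, and from 61.5% ± 0.2 to 64.3% ± 0.2 (SD, n = 3 each) without it. In both cases every BMH-21-treated library lay above every vehicle-treated library. The share of 18S was 28.9% ± 0.8 and 28.8% ± 0.2 (SD, n = 3 each) with the position and 30.1% ± 0.8 and 30.7% ± 0.5 (SD, n = 3 each) without it, and the groups overlapped in either case.

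**Figure D4:**
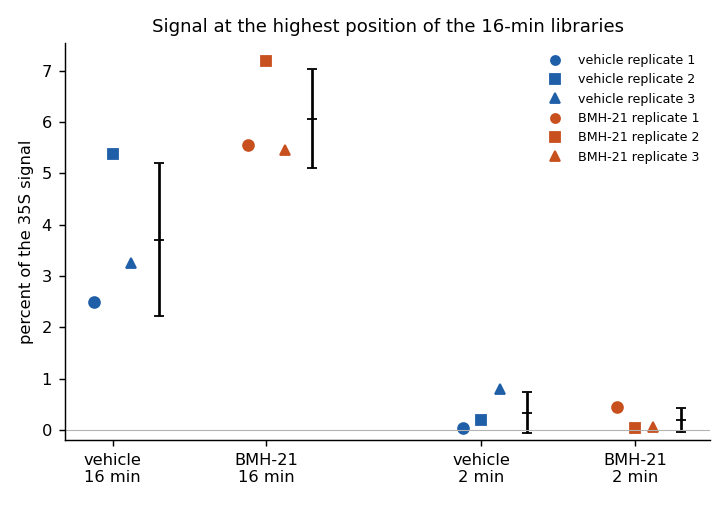
Percent of the 35S signal at position 6399 in the 16-min and the 2-min libraries, 1 point per library, with the group mean and SD as black bars. At 16 min the BMH-21-treated libraries lie between 5.47 and 7.19% and the vehicle-treated libraries between 2.5 and 5.38%. At 2 min all 6 libraries lie under 0.80%.

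For a transcript in progress, the base at the read end tells which nucleotide was last added, and the base after it which was to come next. In the gene regions the study reports contamination by mature rRNA, and the part of such reads in these shares was not tested. Shares of the signal by base were compared for 4 bases at these 2 places in the spacers and in the gene regions, 16 comparisons in all. The smallest p that the exact permutation test allows is 0.1, or 0.27 after Benjamini-Hochberg adjustment, so none could pass a threshold, and the differences are given as sizes.

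In the spacers, the read end lay on A for 34.9%, 35.8% and 32.5% of the signal with vehicle and 33.7%, 35.7% and 31.4% with BMH-21, while A makes up 28.4% of the spacer positions. These values overlapped, as did those of G and U. The share of C went from 15.3% ± 0.9 to 17% ± 0.7 (SD, n = 3 each), without overlap. In ETS1 it was 12.5%, 11.5% and 11.7% with vehicle and 14.1%, 14.3% and 14.8% with BMH-21, and in ITS1 13.9%, 14.0% and 13.2% against 17.8%, 21.3% and 17.9%. In ETS2 it went the other way, from 18.9%, 17.4% and 20.8% to 12.7%, 16.1% and 14.6%, and in ITS2 the groups overlapped. Without the highest 1% of the positions the C shares of the spacers overlapped (exact p = 0.3). At single positions the medians of the log2 change in the spacers were -2.25 for A, -2.13 for G, -1.99 for C and -1.73 for U. The share called lower was 57.9% of 387 tested A positions, 51.4% of 321 G positions, 44.7% of 215 C positions and 31.6% of 437 U positions. Levels differ between the bases and low positions are called less often, and how much of this order follows the level was not tested.

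In the spacers, the base after the read end was G for 30.0%, 30.5% and 28.8% of the signal with vehicle and 27.7%, 26.1% and 24.5% with BMH-21, a difference of -3.68 points, while 23.0% of the spacer positions are followed by G. It was A for 21.8% ± 0.5 and 24.2% ± 2.1 of the signal in the same order (SD, n = 3 each), a difference of 2.39 points, against 28.3% of the positions. For both the groups did not overlap (two-sided exact permutation test, p = 0.1). With positions up to 30 nt from the end of a mature rRNA left out, the differences were -4.37 points for G and 4.80 points for A. Without the highest 1% of the positions they were -1.98 and 1.48 points, with overlapping groups (exact p = 0.3 each), while at the read end A then differed by -3.32 and U by 3.97 points without overlap. Both shares thus lay nearer to those of the positions with BMH-21 than with vehicle.

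In the gene regions, the read end lay on A for 32.6%, 31.5% and 32.0% of the signal with vehicle and 29.9%, 28.7% and 29.2% with BMH-21, a difference of -2.77 points. Without position 6399 the difference was -2.15 points, again without overlap. The share of U rose by 2.53 points with position 6399, which is itself a U, and by 0.91 points without it. The share of signal whose next base is G went up by 1.20 points with position 6399, which is followed by G, and down without it, by -0.52 points, with overlapping groups in both. The share followed by U went from 24.7% ± 0.7 to 22.9% ± 0.5 (SD, n = 3 each), a difference of -1.80 points, and of -1.30 points without position 6399. At single positions of the gene regions, 76 of 1420 A positions, 57 of 1462 G positions, 21 of 1419 U positions and 12 of 1046 C positions were called lower.

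**Figure D5:**
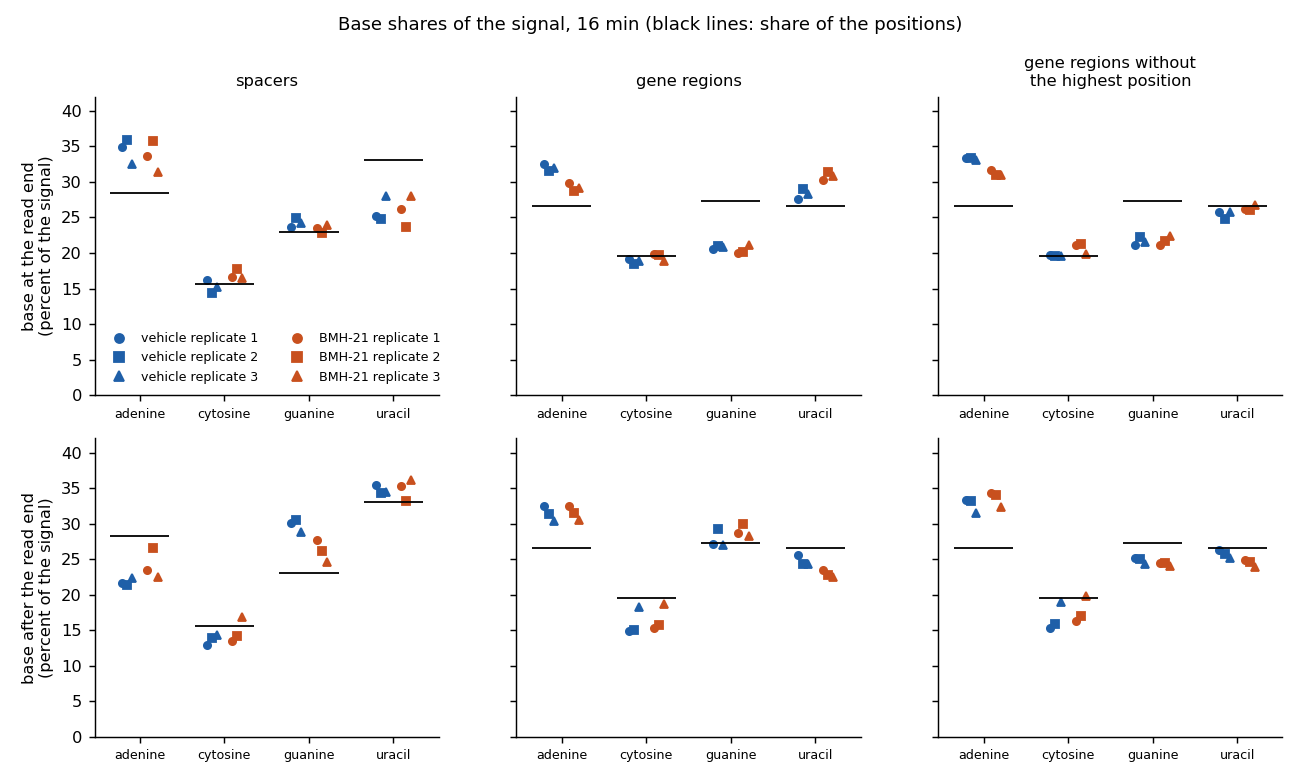
Percent of the signal by the base at the read end (upper row) and by the base after it (lower row), in the spacers, in the gene regions and in the gene regions without position 6399, with 1 point per library and the share of the positions as a black line. In the spacers the signal followed by guanine drops from 28.8 to 30.5% with vehicle to 24.5 to 27.7% with BMH-21, and in the gene regions the mean share of uracil at the read end lies above that of the positions with position 6399 (28.3% and 30.8%) and below it without (25.4% and 26.3%).

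The spacer signal was gathered in few positions in both groups. The highest 2.5% of the spacer positions, 38 positions in each library, held 38.1%, 36.2% and 37.5% of it with vehicle and 33.6%, 36.4% and 31.7% with BMH-21 (two-sided exact permutation test, p = 0.2). With all libraries thinned to 9783 spacer reads these shares were 37.8%, 37.03% and 37.2% against 34.1%, 36.6% and 31.7%, without overlap (exact p = 0.1). The highest 1% held 23.8% ± 0.8 and 19.3% ± 1.3 (SD, n = 3 each), without overlap. The highest 10% held 60.3% ± 0.5 and 60.8% ± 3.2 (SD, n = 3 each). The share of the spacer signal at most 30 nt away from a mature rRNA was 19.2%, 15.03% and 20% with vehicle and 18.2%, 19.1% and 18.6% with BMH-21 (exact p = 1.0).

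Set beside the 2-min experiment, whose libraries were scaled apart and whose changes were not tested here, the late log2 changes were larger in every spacer window. In ETS1 they were -2.01 to -1.52 at 2 min and -3.05 to -2.37 at 16 min. The start of ITS2 showed the widest gap. Its first 30 positions changed by -0.05 at 2 min and by -2.73 at 16 min, and position 3025 had 906, 1102 and 1189 RPM with vehicle and 1383, 664 and 817 RPM with BMH-21 at 2 min. At position 702 of 18S the change was -2.26 at 2 min and -4.14 at 16 min. The differences between the times were not tested.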

How the data were processed

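The authors trimmed the reads with cutadapt 1.12, aligned them to assembly R64 with STAR 2.7.1a, used SAMtools 1.6 and bedtools 2.26.0, and deposited RPM values per position, scaled to each library's read ends on the 35S gene (the values sum to 1000000 over positions 1 to 6739). The linker held a molecular identifier, and a step that merges reads by it is not given in the sources used here. The deposited table of each time also holds the authors' means, medians, ratios and p-values per position, which were not used. Its columns are named wt and mut, read as vehicle and BMH-21. All 6858 bases of the table matched the R64 sequence of RDN37-2.

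Whole reads were recovered by dividing by each library's smallest value, and 99.9% to 100% came out whole within 0.01 reads. Positions (mean of at least 1 RPM, log2(RPM + 1), which understates changes at low positions) and windows of 100 nt, with remainders under 50 nt joined to the window before, were tested with limma 3.58.1 in R 4.3.3 with Benjamini-Hochberg adjustment at 0.05. On the recovered reads, edgeR 4.0.16 was the alternative. Shares were compared by exact permutation tests in Python 3.11.15 with numpy 2.4.6 and pandas 2.3.3, and plots were drawn with matplotlib 3.10.9. The fits were tested on simulated data. The labels call the samples replicates, and the study describes biological triplicates.

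The positions named were the highest of the gene, the highest of each region with vehicle and with BMH-21, the highest vehicle peaks (8 in the spacers, 5 in the gene regions), the 5 most lowered and most raised of each kind that passed, and the peaks with BMH-21 only. Others were named after their values were seen. The comparison, rules and lists were chosen with earlier results of these data known. Alternatives covered the pseudocount, filter, scaling, test, window length, peak rule, thinning, positions left out, each library left out and the replicate number as a block.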

Additional observations from a re-analysis of the deposited data

How the results depend on the processing

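Scaling to the spacer sum turned the profile over, leaving 134 spacer positions lower and 80 higher, 6 gene-region positions lower and 5286 higher, and 6 windows lower and 57 higher. Positions 144, 283, 497, 2605, 2710, 3024 and 5046 then changed by 0.57, 0.08, 0.25, 1.98, 2.07, 0.034 and 2.14 on the log2 scale. A mean of at least 10 RPM left 380 of 502 tested spacer positions lower, against 623 of 1360 with the main filter. The lower spacer, lower gene-region and higher gene-region positions numbered 397, 109 and 59 with edgeR and 217, 59 and 14 in a linear model without limma's moderation, and edgeR gave -0.13 at position 2970. The higher gene-region positions numbered 15 with a pseudocount of 0.1, 43 without position 6399 in the scaling and 56 with the median ratio, and each of the last 2 scalings, and edgeR, made 1 window higher. Replicate numbers did not pair the libraries by the rule used (r of own-number pairs 0.091, 0.079 and 0.296), although every library correlated best with its own number, a hint from the data only. With the replicate block, 692 spacer and 210 gene-region positions were lower, 91 gene-region positions higher, and 14 windows lower and 2 higher (25S 5852 to 5951 and 6352 to 6451). The vehicle peaks that remained were 22 (spacers) and 39 (gene regions) at 5-fold and 4 and 5 at 20-fold. Those that vanished were 2 in the spacers at 20-fold, and in the gene regions 3 at 5-fold, 0 at 20-fold, without thinning or with another seed, and 7 with the 2-min vehicle peaks, which also left 3 gene-region peaks with BMH-21 only. Small differences changed sign: 18S (log2 0.029 without position 6399), 5.8S (-0.093 with rRNA ends left out), read-end U in the spacers (3.97 points without the highest 1%), read-end G in the gene regions (0.084 without position 6399, 0.11 without the highest 1%), next U in the spacers (-3.11 with rRNA ends left out, -1.70 without the highest 1%), next G in the gene regions (-0.52 and -0.51) and the share in the highest positions (0.50 points for the highest 10%). Leaving out 1 library at a time gave 95 to 173 lower and 1 to 42 higher gene-region positions, 0 to 1 higher windows, 6 to 11 vanished spacer peaks, and 3 to 7 (spacers) and 0 to 1 (gene regions) peaks with BMH-21 only. The log2 changes then ran from -0.026 to 0.013 for 18S, -0.040 to 0.084 for 5.8S, -0.085 to 0.40 at 2498, -0.745 to 1.06 at 2970, -0.30 to 0.53 at 3014 and -0.41 to 0.39 at 6650. Differences in share ran from -1.85 to 0.29 points (read-end A, spacers), -1.11 to 1.07 (read-end U, spacers), -0.481 to 0.99 (next U, spacers), -0.431 to 0.63 (next A, gene regions), -0.535 to 1.63 (next C, gene regions) and -0.955 to 1.53 (near rRNA ends). The cause of these shifts was not tested. The other main results kept their direction, and counts stayed within 1.5 times, in 117 comparisons with an alternative setting and 197 with a library left out. Of the named positions, 24 calls were lost under an alternative setting, most of them without limma's moderation, and 16 with a library left out, all 16 at raised gene-region positions. The median spacer position had 4, 3 and 2 reads in the BMH-21-treated libraries.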
